A study of Mus musculus with 20 samples.

Results

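The transcripts of 10 autophagy genes and receptors, Sqstm1, Nbr1, Bnip3, Map1lc3a, Map1lc3b, Gabarapl1, Ulk1, Becn1, Wipi1 and Tfeb, were followed in mouse liver. They were chosen by name, as a group of genes of the autophagy machinery and its cargo receptors, with earlier results of these data known. They were 10 of the 46078 genes in the table of counts. All 10 passed the filter on low counts. The study asked how a diet without cysteine (no-Cys) acts on mice that cannot make cysteine. Livers of 20 male mice, at least 9 weeks old and of mixed 129/C57BL/6 background, were sequenced as poly(A) RNA in 6 groups. Of the heterozygous Cse+/- mice, 2 were fed the control diet, 4 the no-Cys diet and 3 a tryptophan-free (no-Trp) diet. Of the Cse-/- mice, 4 were fed without cysteine, 3 without tryptophan, and 4 without tryptophan but with l-buthionine sulfoximine (BSO), which inhibits glutathione synthesis. No Cse-/- group on the control diet was analysed here. For a first liver experiment the study describes 3 days of calorie-restricted control diet and then 2 days of each diet under continued restriction, controls included. For the present, second experiment it places the livers at day 2, and it describes mice on the no-Cys diet and on no-Trp with BSO as calorie restricted at that day, in other measurements. The prior 3 days are not stated again for it. The deletion of Cse is carried in the germline and so is not limited to the liver. The sample labels call the Cse+/- genotype WT, whereas the study's list of mice gives it as heterozygous, and the name Cse+/- is used here.

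Autophagy encloses cytoplasm in a double membrane, the autophagosome, and delivers it to lysosomes, and it supplies the liver with amino acids during fasting. The ULK1 kinase starts the process, the lipid kinase complex around Beclin 1 (Becn1) marks the membrane with PI3P, and WIPI proteins read that mark. LC3 and GABARAP proteins (the ATG8 family: Map1lc3a, Map1lc3b, Gabarapl1) are then coupled to the membrane, where receptors such as p62 (Sqstm1), NBR1 and the mitophagy receptor BNIP3 attach cargo. TFEB is a transcription factor that acts on lysosomal and autophagy genes. Sqstm1 is also known as a target of NRF2, the factor of the oxidative stress response, and p62 binds the NRF2 inhibitor KEAP1. Transcript levels do not measure autophagic flux, since p62 and LC3 proteins are themselves degraded by autophagy.

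The promoters of the members whose levels set a group apart, and of the 2 members with a motif match, are given here as the 300 bases from 250 before to 50 after the annotated start (RefSeq, GRCm38.p6, 5′ to 3′ on the gene's strand). Of the 10 members 8 were in the promoter table, with 11 promoters in all; Map1lc3a and Becn1 were not. Capitals mark matches to 3 motifs searched on both strands: the core of the antioxidant response element bound by NRF2 (TGACNNNGC), the E-box core of the TFEB-type CLEAR element (CACGTG) and a composite site of the ATF4 type (TGATGNAAN).
Sqstm1 (chr11:50210771-50211070, minus strand): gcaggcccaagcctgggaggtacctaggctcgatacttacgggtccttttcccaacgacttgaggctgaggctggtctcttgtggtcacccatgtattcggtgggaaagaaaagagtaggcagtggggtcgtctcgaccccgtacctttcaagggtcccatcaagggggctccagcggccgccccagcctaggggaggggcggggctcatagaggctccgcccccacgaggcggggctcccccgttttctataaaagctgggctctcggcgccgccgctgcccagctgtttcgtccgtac
Gabarapl1 (chr6:129532942-129533241, plus strand): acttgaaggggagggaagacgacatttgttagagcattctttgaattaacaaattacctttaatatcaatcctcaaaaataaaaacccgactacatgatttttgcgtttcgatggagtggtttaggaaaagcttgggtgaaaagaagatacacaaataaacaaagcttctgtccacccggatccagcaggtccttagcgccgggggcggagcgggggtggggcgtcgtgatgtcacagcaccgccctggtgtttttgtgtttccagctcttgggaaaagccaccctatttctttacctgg
Wipi1 (chr11:109611340-109611639, minus strand): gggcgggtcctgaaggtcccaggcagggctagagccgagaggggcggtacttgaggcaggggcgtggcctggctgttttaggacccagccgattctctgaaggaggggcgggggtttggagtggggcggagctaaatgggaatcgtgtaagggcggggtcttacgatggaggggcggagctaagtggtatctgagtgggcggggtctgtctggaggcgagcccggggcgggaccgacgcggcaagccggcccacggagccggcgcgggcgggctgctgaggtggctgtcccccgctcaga
Map1lc3b (chr8:121590188-121590487, plus strand): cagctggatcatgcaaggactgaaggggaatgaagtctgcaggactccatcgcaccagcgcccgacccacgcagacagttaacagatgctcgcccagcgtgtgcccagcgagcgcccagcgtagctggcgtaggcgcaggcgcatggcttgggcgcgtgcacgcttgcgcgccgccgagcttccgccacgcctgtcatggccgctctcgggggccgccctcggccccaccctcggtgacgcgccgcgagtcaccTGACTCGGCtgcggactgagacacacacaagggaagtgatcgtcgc
Bnip3 (chr7:138909457-138909756, minus strand): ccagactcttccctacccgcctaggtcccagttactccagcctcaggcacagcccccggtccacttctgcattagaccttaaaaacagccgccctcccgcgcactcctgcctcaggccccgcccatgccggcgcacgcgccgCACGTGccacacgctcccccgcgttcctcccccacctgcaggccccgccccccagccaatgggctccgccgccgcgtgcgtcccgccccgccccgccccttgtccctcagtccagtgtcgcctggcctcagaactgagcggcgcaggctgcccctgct

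Map1lc3b held the antioxidant response element core, TGACTCGGC, at base 5 after its start, and Bnip3 held CACGTG 108 bases before its start. The other 9 of the 11 promoters, those of Sqstm1, Gabarapl1 and Wipi1 included, held none of the 3 letter patterns in this window. Among 32851 promoters of the same length in the table, 12.4% held the first pattern, 7.15% the E-box core and 3.95% the ATF4-type site. A match is a description of the letters and not a binding site.

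Total counts on genes ranged from 11785740 to 57986121 per library, with a median of 15252745. Cth, the gene that Cse names, lay between 88.4 and 332 CPM (gene counts relative to the TMM-scaled total of the library) in the Cse+/- livers and between 6.37 and 14.4 CPM in the Cse-/- livers, so that the genotype labels were met in all 20 libraries. The 6 hepatocyte markers summed to between 47774 and 120529 CPM per library, and 2 of 5 skeletal muscle markers and 1 of 5 adipose markers were at 0 in every library. The adipose markers together reached 5.76 CPM in the Cse+/- no-Trp group and 4.70 CPM in the Cse-/- no-Trp group. The 5 pancreas markers summed to between 8.56 and 24.6 CPM per library. Within the Cse-/- no-Cys group mouse av08 stood apart, since its counts differed from those of the other 3 livers by a per-gene chi-square between 43.3 and 48.9, whereas those 3 differed from each other by 9.60 to 16.3. Pairs in the other groups ranged from 12.4 to 64.2. Values without av08 are given beside the results on Sqstm1 and Wipi1. In bulk liver, fewer cells of a type and less RNA per cell cannot be told apart.

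Per kilobase of merged exon length, the level averaged over all libraries was highest for Gabarapl1, at 199.7 CPM per kb, followed by Bnip3 at 136 and Sqstm1 at 125 CPM per kb. Map1lc3a reached 46.9, Nbr1 34.4, Map1lc3b 19.4 and Ulk1 14.8 CPM per kb. The merged length covers all annotated isoforms, 7.517 kb for Map1lc3b and 1.181 kb for Map1lc3a. Without division by length their order was reversed, at 146 CPM for Map1lc3b and 55.4 CPM for Map1lc3a. Becn1 at 6.97, Wipi1 at 4.66 and Tfeb at 2.74 CPM per kb were the lowest of the 10. Exons that overlap another gene, 43.9% of the length for Becn1, and sequence shared with other genes were not corrected for. The order between genes is therefore uncertain. The order of the first 3 changed between groups: Sqstm1 was above Bnip3 in the Cse-/- no-Cys group (176 against 122 CPM per kb) and in the BSO group (139 against 132 CPM per kb), and Bnip3 and Gabarapl1 were at 160.4 and 159 CPM per kb in control livers. The ratio of the highest to the lowest group mean was 1.87 for Sqstm1, 1.69 for Gabarapl1 and 1.59 for Wipi1, and between 1.13 (Becn1) and 1.47 (Map1lc3a) for the other 7. The 3 genes with the widest range therefore come from 3 different steps: a receptor, an ATG8 protein and a PI3P reader.

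**Figure D1:**
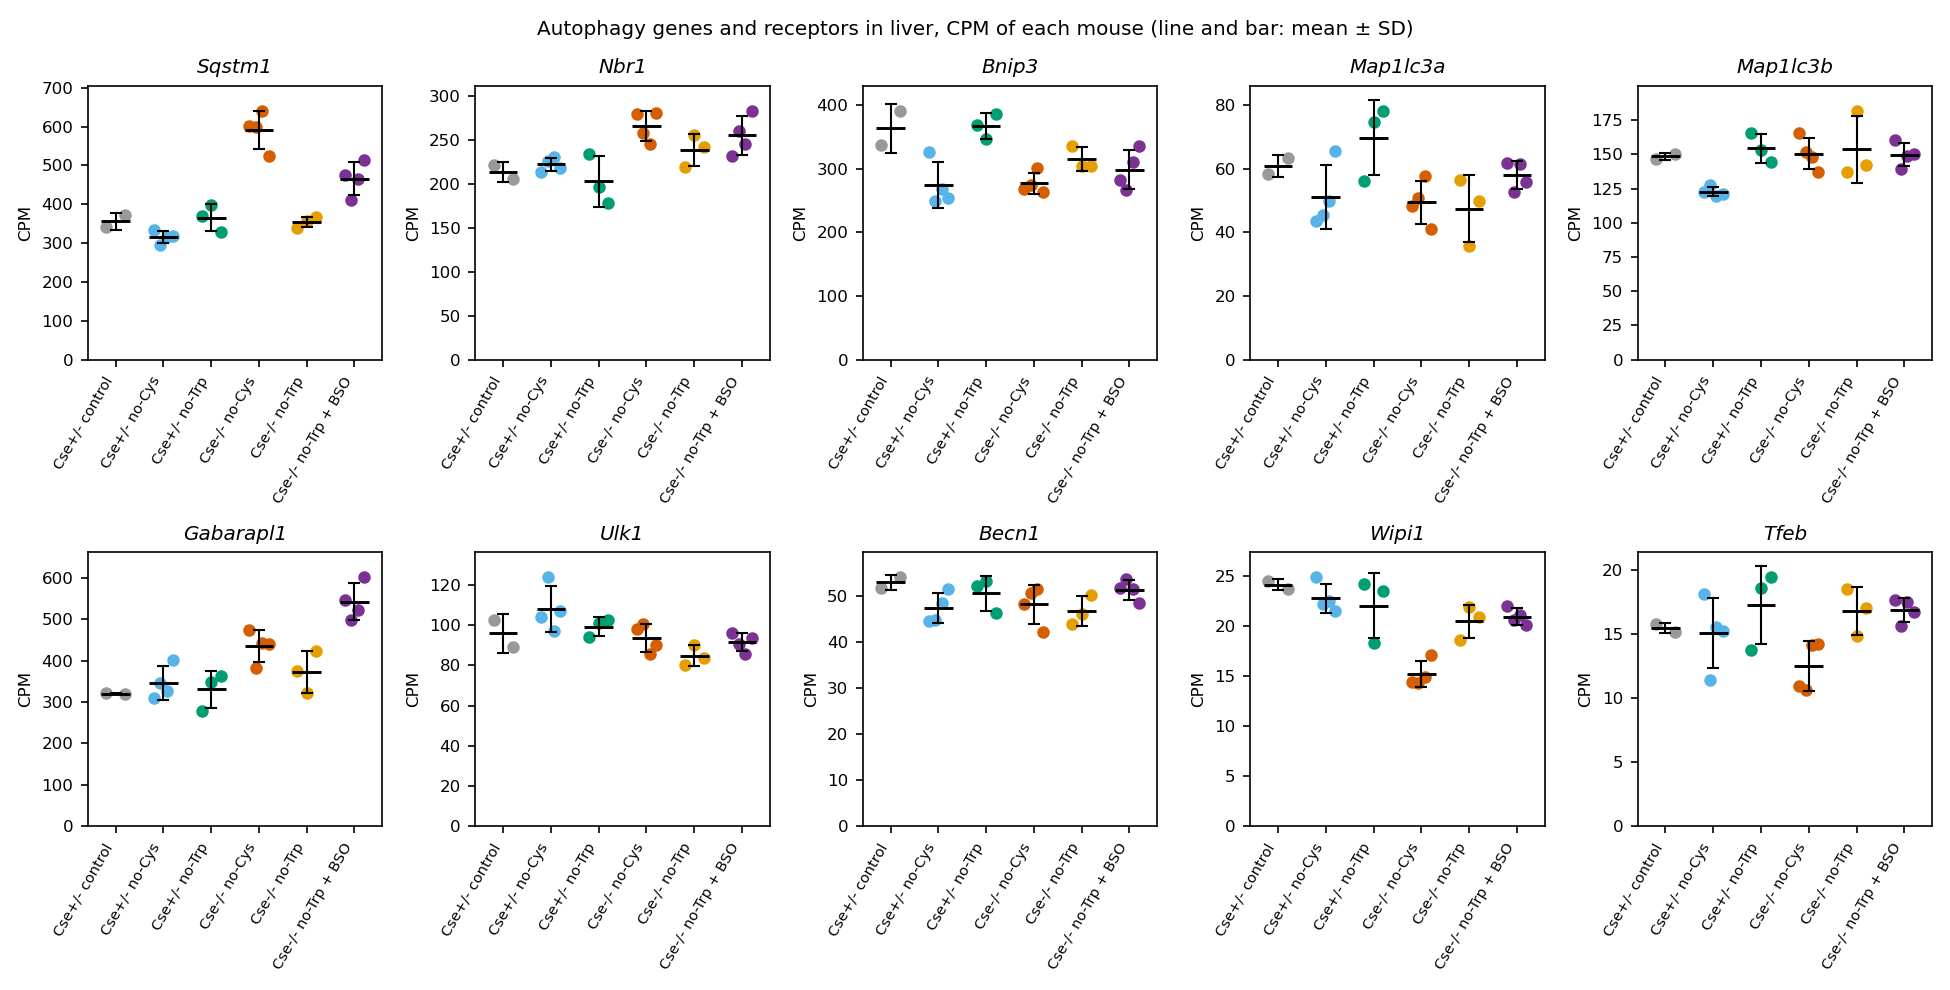
CPM of each of the 10 genes (y axis, from 0) in every mouse of the 6 groups (x axis); each point is 1 liver, the line is the group mean and the bar its SD. Sqstm1 in the 4 Cse-/- no-Cys livers lies between 524 and 640 CPM, above all others, Wipi1 there lies between 14.3 and 17.1 CPM, below all others, and Gabarapl1 is highest in the 4 no-Trp + BSO livers, between 497 and 601 CPM.

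Among the receptors, Sqstm1 (ENSMUSG00000015837, chr11:50199366-50210827, minus strand, GRCm38) was measured at 341 and 372 CPM in the Cse+/- control livers. In Cse+/- mice it was at 333, 295, 316 and 319 CPM on the no-Cys diet and at 369, 399 and 329 CPM on the no-Trp diet. In Cse-/- mice it was at 602, 599, 640 and 524 CPM on the no-Cys diet, at 339, 357 and 367 CPM on the no-Trp diet and at 475, 412, 465 and 513 CPM on the no-Trp diet with BSO. All 4 cysteine-deprived Cse-/- livers were above the other 16, with the BSO group next and the 4 remaining groups between 295 and 399 CPM. Livers of Cse-/- no-Cys mice lay all above or all below the other 16 livers for 2 of the 10 members, against 3.37% of the 14759 genes tested.

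Sqstm1 rose 1.87-fold in Cse-/- against Cse+/- mice on the no-Cys diet (591 ± 48.5 against 316 ± 15.7 CPM, SD, n = 4 each), a log2 fold change of 0.90 with a standard error (SE) of 0.09 and an adjusted p of 1.78e-06 by edgeR's quasi-likelihood test. It was also higher than in Cse-/- mice without tryptophan (log2 fold change 0.74, SE 0.10, adjusted p = 1.65e-04). The difference between genotypes itself differed between the diets, since the genotype by diet interaction was 0.95 on the log2 scale (SE 0.14, adjusted p = 0.00113). On the no-Trp diet alone the genotypes differed by -0.04 (SE 0.10, adjusted p = 0.860). These 3 calls on Sqstm1 held under every alternative run. The liver of av08 had the lowest Sqstm1 of its group, 524 CPM, and without it the difference between genotypes was 0.96, that between diets 0.79 and the interaction 1.00 (adjusted p 6.16e-07, 3.91e-05 and 1.70e-04).

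With BSO added to the no-Trp diet, Sqstm1 was at 466 ± 41.7 CPM (SD, n = 4) against 354 ± 14.0 CPM (SD, n = 3) without it, and the 2 groups did not overlap. How many of all genes separate 2 groups in this way was not counted, here or below, so such separations are descriptions only. The log2 fold change of 0.40 (SE 0.10) missed the threshold, with an adjusted p of 0.0606, but passed by DESeq2 (0.0032), with genes of mean CPM of at least 1 (0.0472) and without mouse av10 of the BSO group (0.0336). The level under BSO was below that of cysteine deprivation: the no-Cys group was higher by 0.34 (SE 0.09, adjusted p = 0.0425). That call was lost without any 1 of av05, av06, av07, av09, av10 and av11, with adjusted p between 0.0902 and 0.128, without the filter on low counts (0.117) and in the fit of the compared groups alone (0.0637). By the point estimates Sqstm1 was ordered no-Cys, then no-Trp with BSO, then no-Trp in Cse-/- livers. Without av08 the difference between the no-Cys and BSO groups was 0.40 (adjusted p = 0.0113). Of the exon sequence of Sqstm1, 15.1% of 61-base words also occurred elsewhere among annotated transcripts, and its opposite-strand neighbour Mrnip was at 0.811 to 2.26 CPM.

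Nbr1, the receptor most like p62 in its domains (ENSMUSG00000017119, chr11:101552149-101581951, plus strand), varied less. It was at 221 and 205 CPM in Cse+/- control livers, at 214, 226, 231 and 218 CPM without cysteine and at 234, 196 and 178 CPM without tryptophan. Livers of Cse-/- mice had 279, 257, 245 and 280 CPM on the no-Cys diet, 219, 255 and 242 CPM on the no-Trp diet and 232, 260, 245 and 283 CPM with BSO. The 2 no-Cys groups did not overlap, whereas the 3 Cse-/- groups did. Nbr1 rose by 0.26 on the log2 scale in Cse-/- against Cse+/- mice without cysteine (SE 0.09, adjusted p = 0.0498), at the edge of the threshold. It was no longer past it in 12 of 16 alternatives, among them the omission of any 1 of the 8 mice compared other than av07 (adjusted p 0.0652 to 0.104).

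Bnip3, a receptor for mitochondria that is induced by hypoxia (ENSMUSG00000078566, chr7:138890836-138909519, minus strand), was not called in any comparison. It was at 336 and 391 CPM in Cse+/- control livers, at 326, 250, 267 and 254 CPM on the no-Cys diet and at 369, 346 and 386 CPM on the no-Trp diet. Cse-/- livers had 268, 274, 301 and 264 CPM without cysteine, 336, 305 and 304 CPM without tryptophan and 282, 266, 310 and 335 CPM with BSO. The Cse+/- no-Cys livers were below the control livers by 0.41 on the log2 scale (SE 0.12, adjusted p = 0.0776). Those 2 groups did not overlap, a separation not counted over all genes. The difference passed by DESeq2 (adjusted p = 0.024) and without av01 (0.022). Since 41.2% of the 61-base words of Bnip3 occurred elsewhere, 27.5% in the gene AC160336.1, its counts are uncertain.

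Of the 3 ATG8 genes, Gabarapl1 and Map1lc3b were called higher in Cse-/- against Cse+/- livers on the no-Cys diet, and Map1lc3a was called in no comparison by edgeR. Gabarapl1 (ENSMUSG00000030161, chr6:129533160-129542346, plus strand) was at 321 and 320 CPM in Cse+/- control livers, at 309, 346, 328 and 402 CPM without cysteine and at 279, 349 and 363 CPM without tryptophan. In Cse-/- livers it was at 474, 381, 441 and 440 CPM on the no-Cys diet, at 374, 322 and 423 CPM on the no-Trp diet and at 547, 497, 523 and 601 CPM with BSO. The livers of that group were above all 16 others, a separation that 0.136% of all genes tested showed for that group. Its highest group was therefore not that of Sqstm1, which was highest on the no-Cys diet.

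Gabarapl1 rose with BSO by 0.54 on the log2 scale against the no-Trp diet alone (541.9 ± 44.4 CPM, SD, n = 4, against 373 ± 50.7 CPM, SD, n = 3; SE 0.12, adjusted p = 0.0383). The call was lost without any 1 of av09, av11, av12, av14 and av15 (adjusted p 0.0873 to 0.210), with scaling to total counts (0.0594) and in the fit of the compared groups alone (0.0806). Between the genotypes on the no-Cys diet it rose by 0.33 (SE 0.11, adjusted p = 0.0385), although the lowest Cse-/- liver was below the highest Cse+/- liver. This call was lost in 8 of 16 alternatives, among them without any 1 of av01, av02, av03, av05, av07 and av08 (0.0603 to 0.103). The no-Cys and BSO groups of Cse-/- mice differed by -0.32 (SE 0.11, adjusted p = 0.114). The antisense gene 1700101I11Rik, which holds 22.0% of the 61-base words of Gabarapl1, stayed at or below 0.236 CPM.

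Map1lc3b, which encodes LC3B (ENSMUSG00000031812, chr8:121590361-121598760, plus strand), was lowest in the Cse+/- no-Cys group. It was at 123, 127, 120 and 121 CPM there, against 147 and 150 CPM in control livers and 166, 153 and 144 CPM on the no-Trp diet. In Cse-/- livers it was at 165, 152, 148 and 137 CPM without cysteine, at 137, 182 and 142 CPM without tryptophan and at 161, 140, 149 and 150 CPM with BSO. The 4 Cse+/- no-Cys livers were below all 16 others, as they were, above or below, for 1.46% of all genes tested. Map1lc3b rose by 0.29 in Cse-/- against Cse+/- mice on the no-Cys diet (SE 0.09, adjusted p = 0.0227), and the Cse+/- no-Cys group differed from control by -0.27 (SE 0.11, adjusted p = 0.205). The Cse-/- no-Cys group had 151 ± 11.6 CPM (SD, n = 4) and the control livers 148 ± 2.23 CPM (SD, n = 2), a pair that was not among the comparisons tested. The genotype call was lost without the filter on low counts (0.0618) and without av03, av05 or av06 (0.0502 to 0.0668).

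Map1lc3a, which encodes LC3A (ENSMUSG00000027602, chr2:155276297-155278073, plus strand), varied widely within groups. It was at 58.5 and 63.4 CPM in Cse+/- control livers, at 43.5, 45.5, 49.8 and 65.7 CPM without cysteine and at 56.3, 74.7 and 78.2 CPM without tryptophan. Cse-/- livers had 48.3, 51.0, 57.6 and 41.2 CPM on the no-Cys diet, 56.6, 35.8 and 49.9 CPM on the no-Trp diet and 61.7, 52.7, 61.6 and 55.9 CPM with BSO. No comparison called it, and the widest difference was that between genotypes without tryptophan (-0.55, SE 0.17, adjusted p = 0.0822). That difference passed by DESeq2 (0.0393), with no filter on low counts (0.0374) and without av14 (0.0447) or av17 (0.0445).

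Of the genes that start and mark the autophagosome, Wipi1 (ENSMUSG00000041895, chr11:109573331-109611967, minus strand) fell in cysteine-deprived Cse-/- livers. It was at 24.5 and 23.7 CPM in Cse+/- control livers, at 24.9, 22.2, 22.5 and 21.5 CPM on the no-Cys diet and at 24.2, 18.3 and 23.5 CPM on the no-Trp diet. In Cse-/- livers it was at 14.4, 14.3, 14.96 and 17.1 CPM on the no-Cys diet, at 18.6, 21.9 and 20.9 CPM on the no-Trp diet and at 22.0, 20.6, 21.1 and 20.1 CPM with BSO. The 4 Cse-/- no-Cys livers were below the other 16, and the other groups lay between 18.3 and 24.9 CPM. Wipi1 differed by 0.04 with BSO against without it (SE 0.10, adjusted p = 0.926).

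Wipi1 fell by 0.58 on the log2 scale in Cse-/- against Cse+/- mice on the no-Cys diet (15.2 ± 1.32 against 22.8 ± 1.46 CPM, SD, n = 4 each; SE 0.10, adjusted p = 2.98e-04), a call that held under every alternative run. Mouse av08 had the highest Wipi1 of its group, 17.1 CPM, and without it the difference was -0.64 (adjusted p = 1.73e-04). Wipi1 was also lower on the no-Cys diet than on the no-Trp diet in Cse-/- mice (-0.43, SE 0.10, adjusted p = 0.0126), and lower than with BSO (-0.47, SE 0.10, adjusted p = 0.0176). The first of these was lost in the fit of the compared groups alone (0.057). The second was lost without av05, av06, av07, av09 or av11 (0.0544 to 0.0721). Without av08 these were -0.49 (0.00564) and -0.53 (0.00379). The interaction of genotype and diet was -0.48 (SE 0.15, adjusted p = 0.0630) and passed by DESeq2 (0.0409) and without av08 (0.0268).

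Ulk1, the kinase that starts autophagy (ENSMUSG00000029512, chr5:110784488-110810097, minus strand), ranged from 80.1 to 124 CPM and was not called in any comparison. It was at 103 and 89.2 CPM in Cse+/- control livers, at 104, 124, 97.0 and 107 CPM without cysteine and at 94.0, 101 and 103 CPM without tryptophan. Among Cse-/- livers it was at 98.2, 101, 85.6 and 90.3 CPM on the no-Cys diet, at 80.1, 90.4 and 83.7 CPM on the no-Trp diet and at 96.2, 90.8, 85.8 and 93.8 CPM with BSO. On the no-Cys diet the genotypes overlapped and differed by -0.21 (SE 0.09, adjusted p = 0.0859). Becn1 (ENSMUSG00000035086, chr11:101285952-101302286, minus strand) had the narrowest range of the 10. Its group means were between 46.7 ± 3.23 CPM (SD, n = 3, Cse-/- no-Trp) and 52.9 ± 1.56 CPM (SD, n = 2, control), all single livers were between 42.1 and 54.0 CPM, and no comparison called it. Its counts are uncertain, since 35.3% of its 61-base words also lie in Cntd1, which overlaps it on the opposite strand and was at or below 0.686 CPM.

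Tfeb (ENSMUSG00000023990, chr17:47737030-47792419, plus strand), the lowest of the 10 per kilobase, was at 15.8 and 15.2 CPM in Cse+/- control livers, at 18.1, 11.4, 15.6 and 15.2 CPM on the no-Cys diet and at 13.8, 18.6 and 19.4 CPM on the no-Trp diet. In Cse-/- livers it was at 10.98, 10.6, 14.1 and 14.2 CPM without cysteine, at 18.5, 14.8 and 17.1 CPM without tryptophan and at 17.7, 15.6, 17.5 and 16.8 CPM with BSO. The Cse-/- no-Cys livers were all below both other Cse-/- groups but overlapped the Cse+/- no-Cys livers. The share of all genes separated in that way was not counted. Its log2 difference was -0.43 against the no-Trp diet (SE 0.15, adjusted p = 0.0683), -0.44 against the BSO group (SE 0.14, adjusted p = 0.0851) and -0.27 against Cse+/- mice on the no-Cys diet (SE 0.14, adjusted p = 0.179). The first of these passed by DESeq2 (0.0455) and without av08 (0.0459) or av15 (0.0476), and the second without av08 (0.0475).

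**Figure D2:**
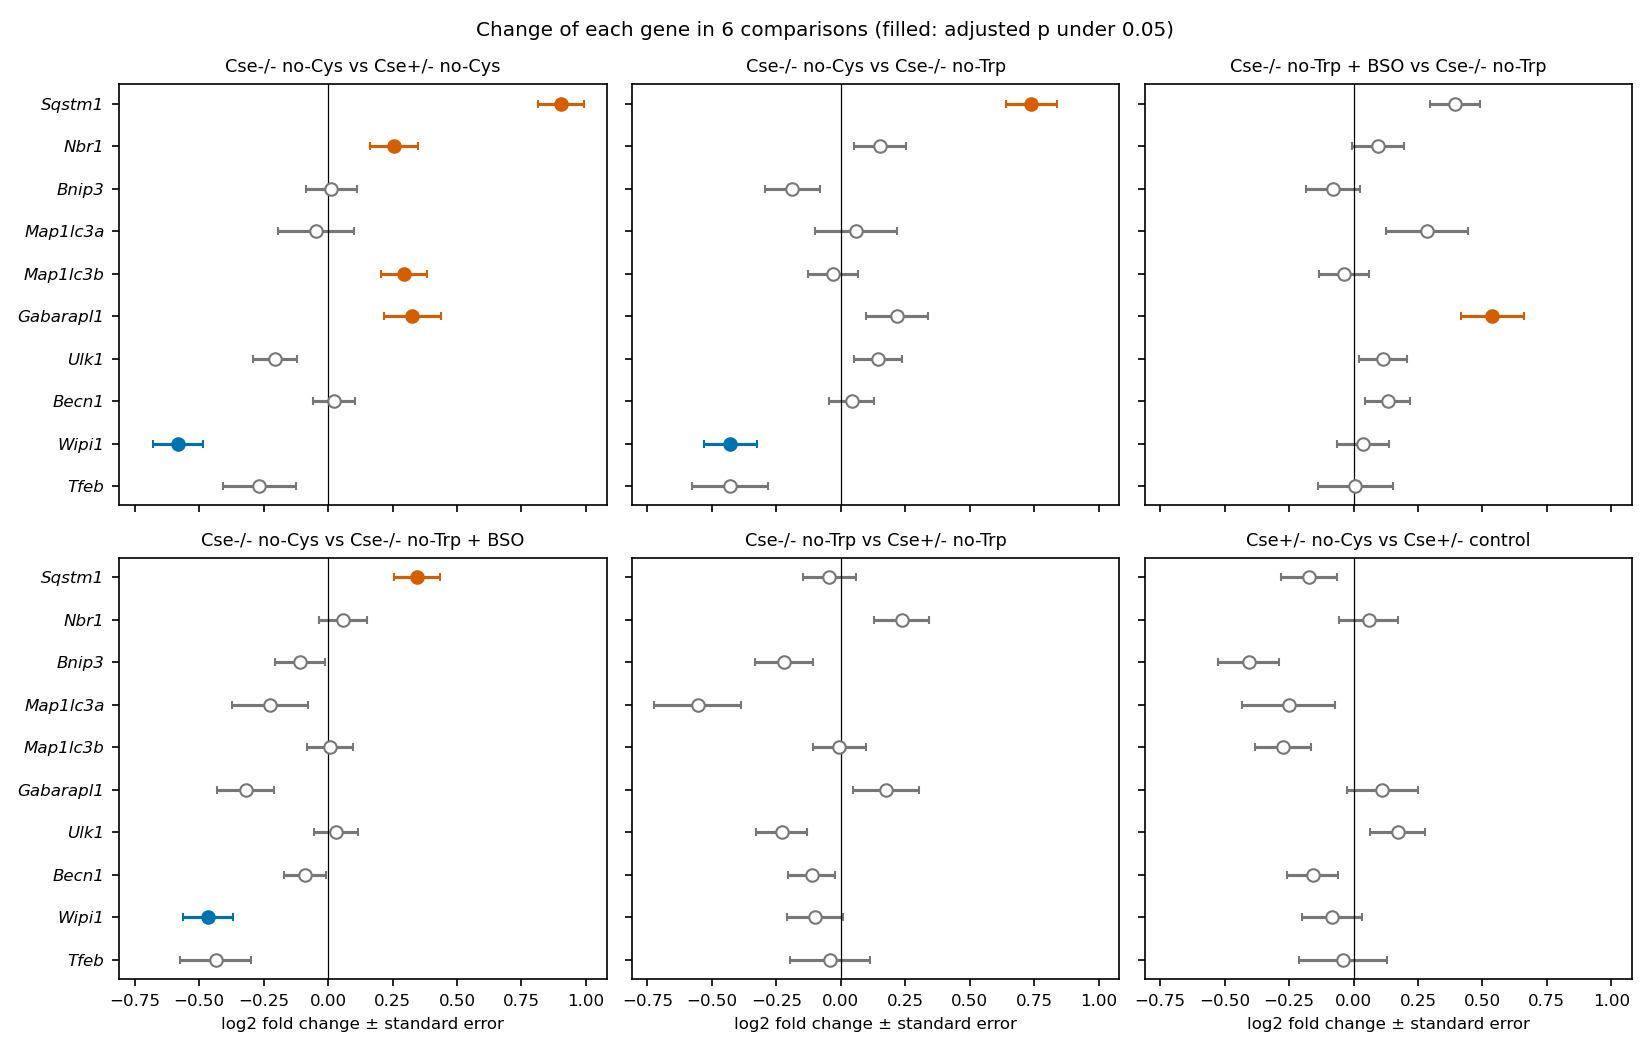
Log2 fold change (x axis) of each of the 10 genes (y axis) in 6 comparisons, with bars of 1 standard error; filled points passed an adjusted p of 0.05 (orange higher, blue lower) and open points did not. Sqstm1 at 0.90 and Wipi1 at -0.58 lie farthest from 0 in the comparison of genotypes on the no-Cys diet, and Gabarapl1 at 0.54 is the gene called with BSO.

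Counted over the 10 genes, the no-Cys diet gave 4 higher and 1 lower in Cse-/- against Cse+/- livers, with 5 not called. With any 1 of the 8 mice left out 2 to 4 were called, with 2 without av03 or av05 and 3 without av01, av02, av06 or av08. In that comparison 23.8% of all genes tested were called, 11.6% higher and 12.2% lower. The median log2 fold change of the 10 was 0.02, against -0.01 for all genes tested. Between the no-Cys and no-Trp diets in Cse-/- mice 1 gene was higher (Sqstm1) and 1 lower (Wipi1), where 10.4% of all genes were called, 5.05% higher and 5.35% lower. The median of the 10 there was 0.05 against -0.01 for all genes. With BSO against without it 1 of 10 was higher (Gabarapl1), where 0.793% were called, 0.488% higher and 0.305% lower, and the medians were 0.10 and -0.0048. Between the no-Cys and BSO groups 1 was higher (Sqstm1) and 1 lower (Wipi1), where 2.75% were called, 1.33% higher and 1.42% lower, and the medians were -0.10 and -0.00015. With 1 mouse left out, 0 to 2 genes were called for BSO against without it and 0 to 3 between the no-Cys and BSO groups, the 3 without av08. These comparisons share groups with each other and are not independent. The 10 genes were chosen with earlier results of these data known, so their counts beside the shares of all genes are a description.

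The interaction of genotype with the 2 deficient diets called 1 of 10 (Sqstm1), where 4.36% of all genes were called, 1.67% higher and 2.69% lower. Between the genotypes on the no-Trp diet edgeR called 0 of 10, where it called 2.64% of all genes. An unadjusted edgeR p under 0.05 was reached there by 3 of 10 and by 2713 of the 14759 genes tested. DESeq2 called 1 of 10, and its share over all genes is not given here. In Cse+/- mice the no-Cys diet against control called 0 of 10 by edgeR, where 2.18% of all genes were called, and 1 by DESeq2. An unadjusted edgeR p under 0.05 was reached by 2 of 10 and by 2456 of the 14759 genes tested. The no-Trp diet in Cse+/- mice against control called 0 of 10 by edgeR, where 0.0474% of all genes were called, and 0 by DESeq2. An unadjusted edgeR p under 0.05 was reached by 0 of 10 and by 1371 of the 14759 genes tested. The last of these had the fewest mice, 3 against 2.

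The marker genes of several cell types moved with the Cse-/- no-Cys group. Of 6 hepatocyte markers 4 were lower and 1 higher than in Cse+/- mice on that diet, and their summed level was 47774 to 77868 CPM against 93092 to 116404 CPM. All 5 blood markers were lower, at 69.1 to 114 CPM against 201 to 406 CPM summed. Of 4 cholangiocyte markers 1 was lower, and their summed level was 13.7 to 23.7 CPM against 42.2 to 49.9 CPM. Of 9 markers of Kupffer and other immune cells 1 was lower (189 to 246 against 229 to 298 CPM summed), of 5 stellate markers 2 (179.8 to 220.04 against 227 to 273 CPM) and of 4 endothelial markers 0 (123 to 131 against 133 to 165 CPM), and none of these 3 lists had a member called higher. Against Cse-/- livers on the no-Trp diet 4 of 6 hepatocyte, 3 of 5 blood and 1 of 4 cholangiocyte markers were lower, and the sums there were 76071 to 83342, 119 to 184 and 24.5 to 43.2 CPM. Against the BSO group 3 of 6 hepatocyte and 2 of 4 cholangiocyte markers were lower and 0 of 5 blood markers were called, with sums of 71429 to 87558, 31.9 to 44.0 and 68.3 to 166 CPM. Their part in the changes of Sqstm1, Wipi1 and the other members was not tested.

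**Figure D3:**
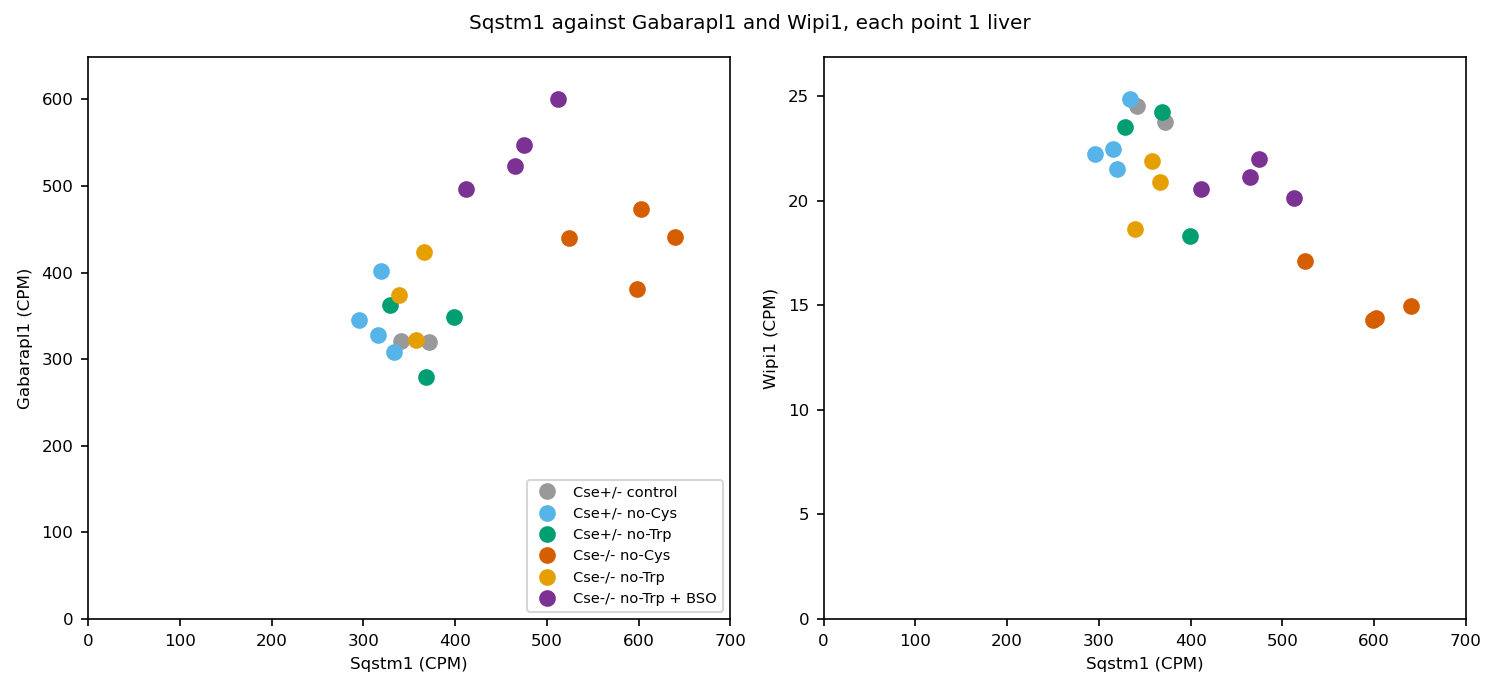
Sqstm1 (x axis, CPM) against Gabarapl1 (left, y axis, CPM) and Wipi1 (right, y axis, CPM) in 20 livers, coloured by group. The Cse-/- no-Cys livers stand to the right at Sqstm1 of 524 to 640 CPM and at the bottom of the Wipi1 panel, and the BSO livers stand at the top of the Gabarapl1 panel.

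Over the 20 livers Sqstm1 correlated with Gabarapl1 at a Pearson r of 0.61 and with Nbr1 at 0.64, and in the opposite direction with Wipi1 at -0.81 (log2 CPM, description only, since livers of 1 group share their genotype and diet). In the plot of Sqstm1 against Gabarapl1 the no-Cys and BSO groups of Cse-/- mice lay apart from each other and from the remaining livers. The 3 genes of 9438 with a mean of at least 5 CPM whose log2 CPM followed Sqstm1 most closely were Eif6, a factor of large ribosomal subunit assembly (r = 0.936, rho = 0.857), Wdr46 (0.935 and 0.8286) and Golga4, a Golgi tether (0.933 and 0.886). For Gabarapl1 they were the glucuronosyltransferase gene Ugt2b36 (0.924 and 0.919), Dcaf12 (0.920 and 0.854) and Gclc, the catalytic subunit of the enzyme that BSO inhibits (0.901 and 0.920). For Wipi1 they were Wfdc21 (0.853 and 0.719), Slc27a5, a bile acid-CoA ligase (0.851 and 0.659), and Otc of the urea cycle (0.850 and 0.592). These are descriptions over 20 libraries of 6 groups, with no test.

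The other autophagy genes, 71 by name in 9 roles, gave a background to the 10. In Cse-/- against Cse+/- livers on the no-Cys diet 8 rose and 4 fell, and their median log2 fold change was 0.01. Of all genes tested 11.6% were higher and 12.2% lower in that comparison (23.8% in all), against 16.9% of the 71. With scaling to total counts 23 of the 71 were higher and 1 lower (33.8%), where 23.7% of all genes were higher and 6.95% lower (30.7%). The counts by role are from the TMM scaling and are a description. By role, 3 of 17 other receptors, 2 of 9 genes of membrane supply and PI3P reading, 1 of 11 of ATG8 conjugation, 1 of 4 of the initiation kinase complex and 1 of 7 of the PI3-kinase complex rose. Of 14 genes of autophagosome fusion 3 fell, as did 1 of the PI3-kinase complex, and none of 2 other ATG8 genes, 2 genes of the mitophagy kinase and ligase and 5 transcription factors were called.

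Retreg1, the ER-phagy receptor also known as FAM134B, had the largest rise of the 71 (log2 fold change 0.87, SE 0.17, adjusted p = 9.16e-04), nearly the size of that of Sqstm1. Atg13, a subunit of the ULK1 complex (0.49, SE 0.11, adjusted p = 0.00335), Atg7, the activating enzyme of ATG8 conjugation (0.44, SE 0.10, adjusted p = 0.00244), and Atg2a, a lipid transfer protein (0.44, SE 0.10, adjusted p = 0.00266), also rose. The 4 that fell were Stx17, the SNARE of the finished autophagosome (-0.46, SE 0.09, adjusted p = 0.00149), its partner Vamp8 (-0.30, SE 0.09, adjusted p = 0.0245), the SNARE Ykt6 (-0.27, SE 0.08, adjusted p = 0.0166) and Uvrag of the PI3-kinase complex (-0.30, SE 0.09, adjusted p = 0.0152). Retreg1, Atg13, Atg7, Atg2a and Stx17 kept their calls in all 16 alternatives. With scaling to total counts, which moved the median of all genes by 0.16 in this comparison, the other 3 were not called: Vamp8 was at -0.13, Ykt6 at -0.11 and Uvrag at -0.13. Without the filter on low counts these 3 were not called either (adjusted p 0.0695 for Uvrag, 0.0814 for Vamp8 and 0.0935 for Ykt6). In the fit of the compared groups alone Vamp8 (0.0611) and Ykt6 (0.0690) lost their calls. They also lost their calls without av03 (Uvrag, adjusted p = 0.0607), without av04, av05 or av08 (Vamp8, 0.0533 to 0.0919) and without av02, av04 or av05 (Ykt6, 0.0556 to 0.0659).

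**Figure D4:**
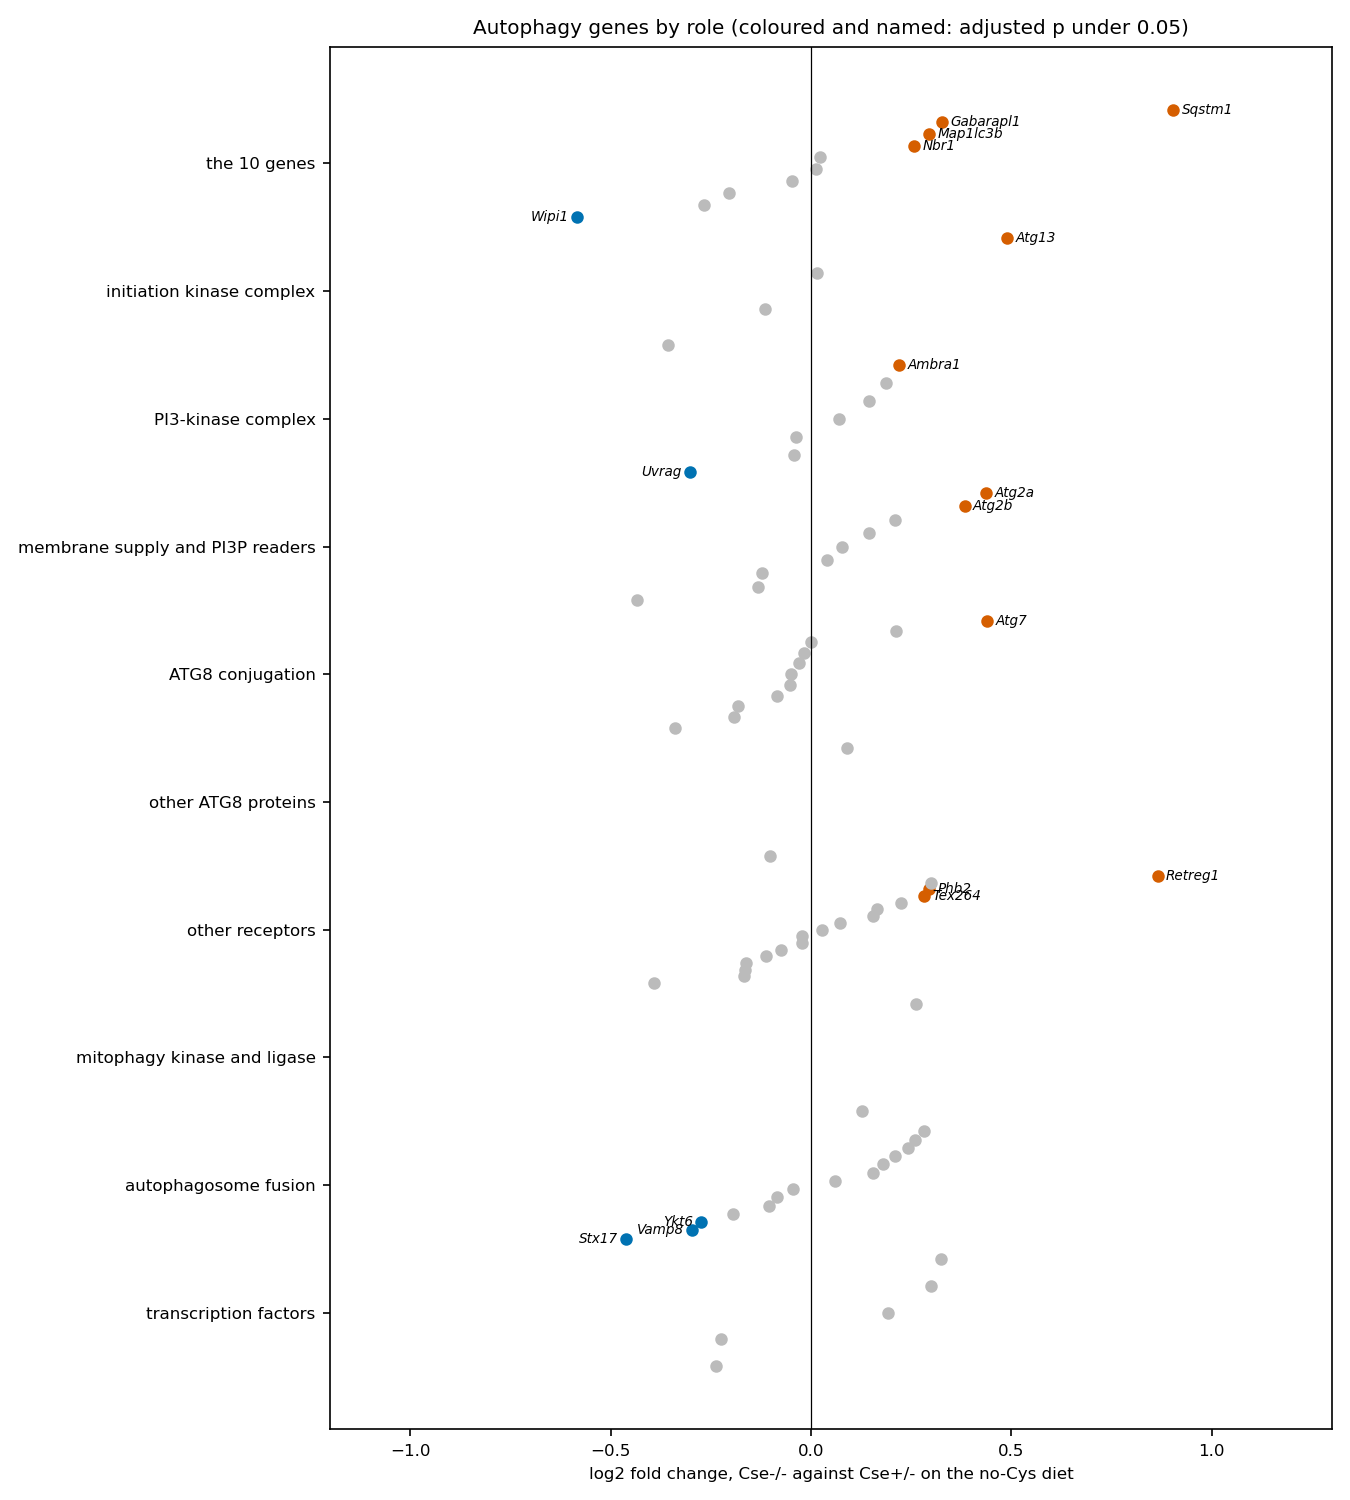
Log2 fold change (x axis) of the 10 genes and of 71 other autophagy genes by role (y axis), Cse-/- against Cse+/- livers on the no-Cys diet, n = 4 each; each point is a gene, and those past an adjusted p of 0.05 are coloured (orange higher, blue lower) and named. Sqstm1 at 0.90 and Retreg1 at 0.87 lie farthest to the right, Wipi1 at -0.58 and Stx17 at -0.46 farthest to the left among called genes.

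Between the no-Cys and no-Trp diets in Cse-/- mice 3 of the 71 rose and 3 fell by TMM scaling, a share no larger than the 5.05% higher and 5.35% lower of all genes tested. With upper-quartile scaling 2 were higher and 5 lower (2.82% and 7.04%, against 4.76% and 5.78% of all genes). With total counts 5 were higher and 1 lower (7.04% and 1.41%, against 8.24% and 3.58%). Pik3c3, the catalytic lipid kinase (0.42, SE 0.11, adjusted p = 0.0185), Vps11, a subunit of the HOPS tether (0.39, SE 0.10, adjusted p = 0.0209), and Atg7 (0.32, SE 0.10, adjusted p = 0.0487) were higher. Zfyve1, the PI3P-binding protein DFCP1 (-0.52, SE 0.14, adjusted p = 0.0230), Plekhm1, a HOPS adaptor (-0.42, SE 0.12, adjusted p = 0.0363), and Atg101 of the ULK1 complex (-0.39, SE 0.11, adjusted p = 0.0344) were lower. None of these 6 was called in the fit of the compared groups alone or without av06, and 2 or 3 genes of the list were called without av07, av14, av15 or av16. With total counts Plekhm1 (adjusted p = 0.0772) and Atg101 (0.0767) were not called. Atg7 was not called with upper-quartile scaling (0.0519), without the filter on low counts (0.123) or in thinned libraries (0.0786). With BSO against without it neither edgeR nor DESeq2 called any of the 71 (0 by each). An unadjusted edgeR p under 0.05 was reached by 11 of the 71 and by 1926 of the 14759 genes tested.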

How the data were processed

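Raw counts per gene were used as the authors deposited them: reads aligned to GRCm38 with HISAT2 2.1.0 and counted with HTSeq 0.11.0, per the labels, without normalization. The sources used here do not give the annotation release or the strand setting. Reads from overlapping genes on opposite strands could not be told apart. Columns of the table carry mouse numbers and were put in groups by the study's list of mice; 1 column of per-sample values was not used. Of 46078 genes 45143 received a symbol (GENCODE annotation of GRCm38).

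Counts were fitted with edgeR 4.0.16 (R 4.3.3) over all 20 libraries with 6 group means, TMM factors and the quasi-likelihood test, after filterByExpr (minimum count 10, minimum total 15), which left 14759 genes. P-values were adjusted over all of them by Benjamini-Hochberg with a threshold of 0.05. DESeq2 1.42.0 (Wald test, the study's own tool), other scalings, filters, fits of the compared groups alone, thinned libraries and the omission of each mouse were alternatives. Scripts were tested on simulated data. CPM are counts over TMM-scaled library sizes, and log2 CPM used a prior count of 2. All 10 members are named, and of the other autophagy genes those called with the 4 largest changes each way in 3 comparisons. The members and lists were chosen with earlier results of these data known. Each library is 1 mouse, and pairs of libraries within groups differed beyond sampling noise. Promoters are those of RefSeq, and sequences of the proteins were not used here.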

Additional observations from a re-analysis of the deposited data

Results flagged for a closer look

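Sqstm1 differed between the diets in its response to genotype: the interaction between genotype and the no-Cys against the no-Trp diet was 0.95 on the log2 scale by edgeR (SE 0.14, adjusted p = 0.00113), with all 4 Cse-/- no-Cys livers above all Cse+/- no-Cys livers and the no-Trp groups overlapping. For single genes, Dixon's ratio marked no liver in the 30 sets of 4 livers examined for the 10 genes, a test that with 4 values marks only a wide gap. Over all genes mouse av08 stood apart in the Cse-/- no-Cys group, since its counts differed from those of the other 3 livers by a per-gene chi-square between 43.3 and 48.9.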

How the results depend on the processing

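Across the alternatives no called member changed direction. Of the members' fold changes 1174 values either kept a call and its direction or stayed uncalled and within 1 SE, 16 stayed uncalled but moved by more than 1 SE, 15 became called and 45 lost a call. In Cse-/- against Cse+/- mice on the no-Cys diet, where 5 members were called, the count was 2 with no filter on low counts, 3 in the fit of the compared groups alone, 2 at an adjusted p of 0.01, and 2 to 4 with 1 mouse left out. Between the no-Cys and no-Trp diets in Cse-/- mice (2 called) it was 1 in the fit of the compared groups alone, 1 at 0.01, 3 by DESeq2 and 2 to 3 with 1 mouse left out. For BSO (1 called) it was 0 with total counts, 2 with a mean CPM of at least 1, 2 by DESeq2, 0 in the fit of the compared groups alone, 0 at 0.01 and 0 to 2 with 1 mouse left out. Between the no-Cys and BSO groups (2 called) it was 1 without a filter, 1 in the fit of the compared groups alone, 0 at 0.01 and 0 to 3 with 1 mouse left out. For genotype on the no-Trp diet (0 called) it was 1 without a filter, 1 by DESeq2 and 0 to 1 with 1 mouse left out. For the no-Cys diet in Cse+/- mice (0 called) it was 1 by DESeq2 and 0 to 1 with 1 mouse left out, and for the interaction (1 called) 2 by DESeq2 and 1 to 2 with 1 mouse left out. Of the 71 other autophagy genes 12 were called between genotypes on the no-Cys diet, against 24 with total counts only, 7 without a filter and 6 at 0.01. Between the diets 6 were called, against 10 by DESeq2, 0 in the fit of the compared groups alone, 0 at 0.01 and 0 to 7 with 1 mouse left out. For BSO the count was 0 to 1 with 1 mouse left out. The share of all genes called moved with the setting too. With total counts it was 30.7% against 23.8% between genotypes on the no-Cys diet, and 0.745% against 0.793% for BSO. Shares under the other settings named here are not given, and with a mouse left out they were not counted. These counts therefore do not show a change particular to autophagy genes. The cause of these moves was not tested, other than that the 0.01 threshold is stricter by construction.

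No paired analysis was possible because the columns of the table carry mouse numbers and no replicate number of the labels. Groups of 2 to 4 mice limit the precision of these values. Alternatives for the other autophagy genes were added after the data were seen.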

Other observations

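Vmp1, an ER membrane protein needed for autophagosome formation, was singled out after its values were seen. It ranged from 219.97 to 279 CPM in the 3 Cse+/- no-Trp livers and from 113 to 129 CPM in the 3 Cse-/- no-Trp livers, while the other 4 groups lay between 112 and 189 CPM. It was lower in Cse-/- than in Cse+/- livers on the no-Trp diet, by -1.10 on the log2 scale (SE 0.13, edgeR adjusted p = 1.42e-04), and its genotype by diet interaction was 0.97 (SE 0.17, adjusted p = 0.00370). Both calls held under every alternative run. On the no-Cys diet the genotypes differed by -0.12 (SE 0.11, adjusted p = 0.465). In Cse+/- livers the no-Trp diet against control gave 0.69 (SE 0.15, adjusted p = 0.133) and was not called. The groups did not overlap, a separation not counted over all genes. None of the 10 members had a called genotype difference on the no-Trp diet by edgeR, and 1 was called by DESeq2. An unadjusted edgeR p under 0.05 was reached by 3 of the 10 and by 2713 of the 14759 genes tested.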
